A study of Mus musculus with 6 samples.

Results

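The BAF complex (the mammalian SWI/SNF chromatin remodeller) was described here by 10 genes of its subunits, *Smarca2*, *Smarca4*, *Smarcb1*, *Smarcc1*, *Smarcc2*, *Smarcd1*, *Smarcd2*, *Smarcd3*, *Arid1a* and *Pbrm1*. They were taken by exact gene symbol from the deposited table of 23284 genes, and all 10 were found. BAF uses the energy of ATP to move or eject nucleosomes, which opens promoters and enhancers to transcription factors. A motor ATPase (*Smarca4*, which encodes BRG1, or *Smarca2*, which encodes BRM) works with a core of scaffold subunits, and most positions can be filled by one of several paralogues, so that tissues assemble different complexes. In the embryonic heart the complex is known to work with Tbx5, Gata4 and Nkx2-5, and the *Smarcd3* product BAF60c is known as the subunit that links these factors to BRG1.

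RNA-seq had been made from heart ventricles of C57BL/6 embryos at embryonic day 9.5, with 3 wild type (WT) embryos and 3 knockdown (KD) embryos labelled *Tbx5ua* -/-. *Tbx5ua* is the lncRNA transcribed divergently from a *Tbx5* promoter, and in KD both of its alleles carried 3 inserted polyadenylation signals in the second exon, which end transcription early. All embryos of both groups were tetraploid chimeras, in which the embryo proper derives from the injected C57BL/6 J ES cells, and the labels do not say which KD ES cell line gave which embryo. Each library was made by Smart-Seq2, a full-length cDNA method, from 10 ng of total RNA, amplified over 12 PCR cycles before and 9 after tagmentation. The authors' table holds 1 FPKM value (fragments per kilobase of transcript, scaled to the number of mapped fragments) for the WT group and 1 for the KD group. No value of a single embryo was at hand, and the authors' own test results in that table were not used. The differences below thus have no replicate check, no SD and no test, and the depth of the libraries is unknown.

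Of the 23284 genes, 11366 had a mean of at least 1 FPKM over the WT and KD values and were compared. The log2 ratio of KD over WT (with 0.1 FPKM added to both values) had a median of 0.004 over these genes, and 80% of them lay between -0.30 and 0.35. A difference of at least 1.5-fold in either direction was found in 6.48% of the compared genes, with 3.79% higher and 2.68% lower in KD. Cardiomyocyte markers were abundant in both groups, with *Tnnt2* at 1842 FPKM in WT against 1807 in KD. All 5 skeletal muscle markers were listed below 0.01 FPKM in both groups, 4 of them at 0. A listed 0 is not always a measurement, as for *Actc1* below. Ventricle tissue also holds endocardial, epicardial and blood cells, and in such samples a change in the number of cells of a type and a change in RNA per cell cannot be told apart. The level of *Tbx5ua* is not analysed here, which leaves the group labels of these libraries without a check on the targeted transcript. By qRT-PCR, the paper reports a strong reduction of *Tbx5ua* in KD embryos of the same stage.

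The 3 BAF60 genes *Smarcd1*, *Smarcd2* and *Smarcd3* held the 3 largest log2 ratios of KD over WT, irrespective of sign, among the 10 subunits and went in opposite directions. Their promoter sequences are shown because one position of the complex is filled by one of their products. Each line gives the 250 bases before an annotated start site, 5′ to 3′ in the direction of transcription, from RefSeq on build GRCm38.p6. Capitals mark matches to a T-box core (AGGTGT on either strand).

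Smarcd1: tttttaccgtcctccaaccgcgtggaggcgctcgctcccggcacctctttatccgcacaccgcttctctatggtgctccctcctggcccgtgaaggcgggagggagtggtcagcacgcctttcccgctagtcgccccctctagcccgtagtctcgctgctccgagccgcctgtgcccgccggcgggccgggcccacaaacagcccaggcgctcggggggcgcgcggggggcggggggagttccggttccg
Smarcd2: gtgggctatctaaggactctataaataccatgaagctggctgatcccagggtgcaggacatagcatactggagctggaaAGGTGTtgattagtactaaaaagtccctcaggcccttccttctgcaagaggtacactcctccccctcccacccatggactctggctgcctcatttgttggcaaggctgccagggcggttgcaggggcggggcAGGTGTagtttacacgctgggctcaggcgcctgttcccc
Smarcd3: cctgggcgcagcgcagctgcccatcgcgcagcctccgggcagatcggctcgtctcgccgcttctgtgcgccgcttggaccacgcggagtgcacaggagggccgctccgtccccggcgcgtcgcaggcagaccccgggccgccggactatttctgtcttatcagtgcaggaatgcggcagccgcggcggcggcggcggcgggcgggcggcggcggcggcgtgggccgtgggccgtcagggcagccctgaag

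The *Smarcd1* stretch lies at chr15:99702037-99702286 on the plus strand and that of *Smarcd3* at chr5:24602003-24602252 on the minus strand, both directly before the gene as the deposited table places it. The *Smarcd2* stretch, at chr11:106267633-106267882 on the minus strand, belongs to a start site 5340 bases inside the gene as the table places it. It held 2 matches to the T-box core, 171 and 39 bases before that start site, while the windows of *Smarcd1*, *Smarcd3* and the other 7 genes held none. The bases before the 5′ end of *Smarcd2* as the table places it were not searched. The matches and CpG count of *Smarcd2* thus describe the inner start site only. Among 32851 RefSeq promoter windows of the same length, 11.8% held at least 1 match and 1.15% at least 2. No window of the 10 genes held a match to a GATA site (AGATAA) or an Nkx2-5 site (TNAAGTG), both searched on either strand, which occur in 9.99% and 10.1% of windows. The *Smarcd1* and *Smarcd3* stretches were rich in CpG, with 29 and 38 CpG dinucleotides against a median of 6 over all windows, and the inner *Smarcd2* stretch held 4. A match is only a run of letters, and binding was not measured here.

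Positions of genes below are on mm10 as in the table, counted from 1. *Smarcd3* (chr5:24592622-24602002) had 18.5 FPKM in WT against 13.7 in KD. The KD value was thus 1.35-fold lower, a log2 ratio of -0.43, and 12.0% of the compared genes had a larger ratio in either direction. *Smarcd2* (chr11:106263171-106272972), whose product BAF60b is best known from granulocyte development, had 4.22 FPKM in WT against 7.27 in KD. It was 1.71-fold higher in KD, a log2 ratio of 0.77, and 3.48% of the compared genes had a larger ratio in either direction. *Smarcd1* (chr15:99702287-99713995), which encodes the broadly expressed BAF60a, had 6.50 FPKM in WT against 8.40 in KD, a 1.29-fold higher value with a log2 ratio of 0.37. The heart-linked paralogue was thus lower in KD and both others were higher.

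The summed level of the BAF60 genes was almost equal in the groups, at 29.3 FPKM in WT against 29.4 in KD, a difference of 0.407% of the WT sum. FPKM is scaled to transcript length, so levels of different genes can be added. The FPKM of all genes summed to 859452 in WT and 877889 in KD. The BAF60 sums were not recomputed with the groups rescaled to equal totals, so a difference as small as 0.407% depends on the scaling. Of this sum *Smarcd3* made up 63.4% in WT and 46.6% in KD. *Smarcd2* made up 14.4% in WT and 24.8% in KD, and *Smarcd1* 22.2% in WT and 28.6% in KD. *Smarcd3* remained the most abundant of the 3 in both groups, and its level was 4.39 times that of *Smarcd2* in WT and 1.88 times in KD.

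**Figure D1:**
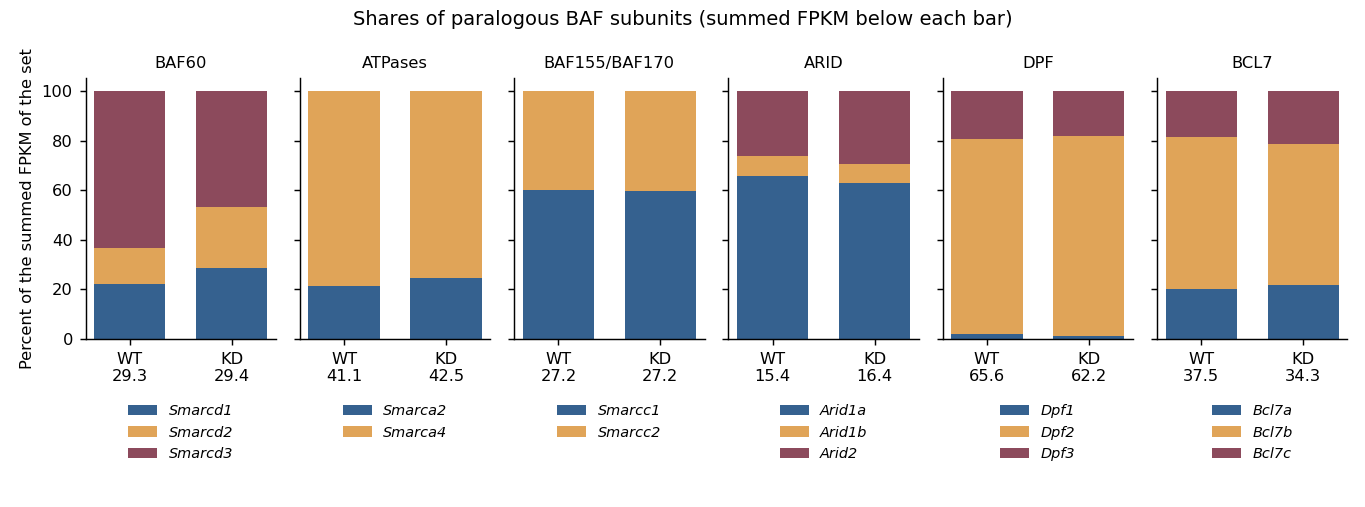
Share of each paralogue in the summed FPKM of its set (vertical axis, percent) in WT and KD, with the summed FPKM printed below each bar. In the BAF60 set *Smarcd3* goes from 63.4% in WT to 46.6% in KD while the sum stays at 29.3 and 29.4 FPKM, and no other set shown moves by more than 5 percentage points.

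Of the ATPases, *Smarca4* (chr9:21616169-21704230) was the second most abundant of the 10 subunits, with 32.2 FPKM in WT against 32.1 in KD, a log2 ratio of -0.01. *Smarca2* (chr19:26605160-26823907) had 8.87 FPKM in WT against 10.4 in KD, a log2 ratio of 0.23. The table gives *Smarca2* the same locus as 4931403E22Rik, an antisense gene listed at 0.131 FPKM in WT and at 0 in KD. *Smarca4* thus made up 78.4% of the summed ATPase level in WT and 75.5% in KD, with sums of 41.1 and 42.5 FPKM.

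The core and scaffold subunits were close to equal in the groups. *Smarcb1* (chr10:75896769-75921614), which encodes the core subunit SNF5 (BAF47), was the most abundant of the 10, with 105 FPKM in WT against 101.7 in KD. Its log2 ratio was -0.05, and its level was 3.26 times that of *Smarca4* in WT and 3.17 times in KD. *Smarcc1* (BAF155, chr9:110132024-110240178) had 16.4 FPKM in WT against 16.3 in KD, a log2 ratio of -0.01. *Smarcc2* (BAF170, chr10:128459236-128490174) had 10.8 FPKM in WT against 11.0 in KD, a log2 ratio of 0.02. These paralogues form the scaffold around which the complex is built, and *Smarcc1* made up 60.2% of their sum in WT and 59.7% in KD.

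*Arid1a* and *Pbrm1* mark different assemblies, since ARID1A is found in canonical BAF and the product of *Pbrm1*, the bromodomain protein BAF180, in the variant PBAF. *Arid1a* (chr4:133679008-133753611) had 10.1 FPKM in WT against 10.3 in KD, a log2 ratio of 0.02. *Pbrm1* (chr14:31019138-31121592) had 11.5 FPKM in WT against 11.4 in KD, a log2 ratio of -0.004. *Pbrm1* had the ratio nearest to 0 of the 10 subunits.

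**Figure D2:**
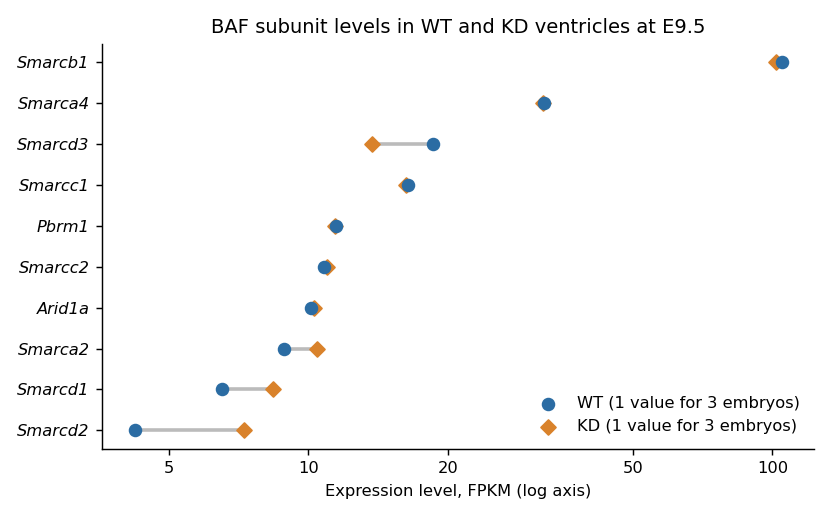
Level of each of the 10 BAF subunits in FPKM (horizontal log axis), with a circle for the WT value and a diamond for the KD value, each 1 value for 3 embryos. *Smarcd3* is lower in KD (18.5 and 13.7 FPKM), *Smarcd2* (4.22 and 7.27 FPKM), *Smarcd1* and *Smarca2* are higher, and the other 6 pairs nearly coincide.

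The order of levels in WT ran from *Smarcb1* through *Smarca4*, *Smarcd3*, *Smarcc1*, *Pbrm1*, *Smarcc2*, *Arid1a*, *Smarca2* and *Smarcd1* to *Smarcd2*. In KD *Smarcd3* and *Smarcc1* exchanged places, *Smarca2* passed *Arid1a*, and the other places were kept. Without a spread between embryos it cannot be said which neighbours differ.

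Of the 10 subunits 1, *Smarcd2*, passed 1.5-fold, where 6.48% of all compared genes did. All but *Smarcb1* had a mean between 5 and 50 FPKM, and of the 5685 compared genes in that range 3.11% passed 1.5-fold. *Smarcd2*, with a mean of 5.75 FPKM, lay near the lower edge of that range. Of the compared genes between 1 and 5 FPKM, 13.8% passed. At a lower limit, a log2 ratio of 0.32 in size, 3 of the 10 subunits, the BAF60 genes, passed, beside 20.1% of all compared genes and 14.2% of those between 5 and 50 FPKM. At 2-fold 0 of the 10 passed, beside 2.01% of the compared genes. The median log2 ratio of the 10 subunits was 0.01, with 5 above 0 and 5 below, and the median size of the ratio irrespective of sign was 0.03, against 0.15 over all compared genes. A single gene among 10 is not set apart from the share over all genes.

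**Figure D3:**
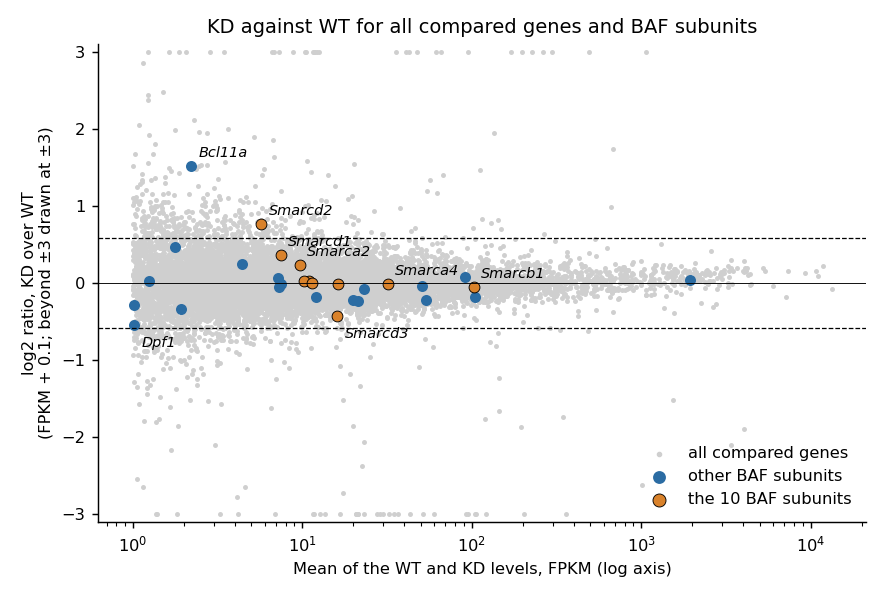
Log2 ratio of KD over WT (vertical axis) against the mean of the WT and KD levels in FPKM (horizontal log axis) for 11366 compared genes in grey, the other BAF subunits in blue and the 10 subunits in orange, with dashed lines at 1.5-fold. *Smarcd2* (0.77) and *Bcl11a* (1.52) lie above the upper line, and the scatter of all genes widens towards low levels.

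Beside the 10 subunits, 21 further subunit genes were listed, of which 19 reached a mean of 1 FPKM. Of these 1 was at least 1.5-fold higher and 0 at least 1.5-fold lower in KD, beside 3.79% and 2.68% of all compared genes. Their median log2 ratio was -0.06, with 7 above 0 and 12 below. *Bcl11a*, which encodes a zinc finger protein of neural and blood cell BAF complexes, had 1.10 FPKM in WT against 3.33 in KD, a log2 ratio of 1.52. It was 2.86-fold higher in KD, and 1.02% of the compared genes had a larger ratio in either direction. Of the 3662 genes between 1 and 5 FPKM, 13.8% passed 1.5-fold.

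Of the 7 further subunits that belong to several assemblies, 6 were compared and 0 passed 1.5-fold, beside 6.48% of all compared genes. *Smarce1* (BAF57, an HMG box protein) had 88.4 FPKM in WT against 93.0 in KD, and *Actl6a* (BAF53a, an actin-related protein) had 111.5 FPKM in WT against 98.5 in KD. *Actl6b*, the neuronal paralogue of *Actl6a*, was listed at 0 in both groups. *Actb*, which encodes beta-actin, had 1908 FPKM in WT against 1967 in KD, and its product also builds the cytoskeleton. Among the BCL7 genes *Bcl7b* was highest, with 23.0 FPKM in WT against 19.6 in KD, while *Bcl7a* (7.51 and 7.41 FPKM) and *Bcl7c* (7.00 and 7.32 FPKM) were lower. The *Bcl7c* locus holds another gene of the table.

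In canonical BAF the DPF and SS18 positions also have tissue forms. *Dpf2*, the broadly expressed form, had 51.7 FPKM in WT against 50.1 in KD, and *Dpf3*, the form known from heart and skeletal muscle, had 12.7 FPKM in WT against 11.2 in KD. *Dpf1*, the neuronal form, had 1.23 FPKM in WT against 0.811 in KD. *Dpf3* made up 19.4% of the DPF sum in WT and 18.1% in KD. *Ss18* had 57.8 FPKM in WT against 49.7 in KD, and its neuronal paralogue *Ss18l1* (CREST) had 1.13 and 0.909 FPKM. *Arid1b*, which replaces *Arid1a* in some complexes, had 1.24 FPKM in WT against 1.27 in KD, and *Bcl11b* did not reach a mean of 1 FPKM (0.321 and 0.399 FPKM). The neuronal forms *Actl6b*, *Dpf1* and *Ss18l1* were thus listed at 0 or near 1 FPKM in both groups.

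PBAF is defined by *Arid2*, *Brd7* and *Phf10* together with *Pbrm1*. *Arid2* had 4.06 FPKM in WT against 4.82 in KD, *Brd7* 23.9 and 22.6 FPKM, and *Phf10*, whose locus holds 2 other genes of the table, 7.40 and 7.12 FPKM. The smaller non-canonical complex is defined by *Brd9* and the GLTSCR1 proteins. *Brd9* had 21.6 FPKM in WT against 18.5 in KD, *Gltscr1* 1.47 and 2.08 FPKM, and its paralogue, listed as BC032203, 2.16 and 1.69 FPKM. In both assemblies 0 of 3 genes passed 1.5-fold, beside 6.48% of all compared genes, and counts over so few genes say little.

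For comparison, 3 other families of ATP-dependent remodellers were read from the same table. Of 47 compared genes of the ISWI, CHD and INO80 families, 1 was at least 1.5-fold higher in KD and 0 lower. Of all compared genes 3.79% were higher and 2.68% lower. The median log2 ratio of the 47 genes was -0.03. Among ISWI genes (0 of 13 past 1.5-fold) the highest level was that of *Rbbp7* (335.6 and 329.5 FPKM in WT and KD, at a locus of 7 genes in the table), and the log2 ratios ran from -0.50 for *Cecr2* to 0.23 for the ATPase *Smarca5*. Among CHD and NuRD genes (0 of 17) *Hdac1* had the highest level (90.6 and 87.1 FPKM), and the log2 ratios ran from -0.56 for *Gatad2b* to 0.40 for *Mbd2*. Among INO80 and SRCAP genes (1 of 17) *Ruvbl2* had the highest level (132.4 and 125.6 FPKM), and the log2 ratios ran from -0.42 for *Ino80d* to 0.79 for *Actr5*, which had 1.45 FPKM in WT against 2.58 in KD and lies at a locus with another gene of the table. Among Polycomb genes, whose products oppose BAF at many promoters, 1 of 24 passed, *Pcgf5*, with 34.5 FPKM in WT against 21.8 in KD (log2 ratio -0.66). The highest Polycomb level was that of *Rnf2* (45.7 and 41.3 FPKM) and the highest log2 ratio that of *Ring1* (0.50). The median log2 ratio was -0.02 for ISWI and 0.02 for Polycomb genes, beside 0.01 for the 10 BAF subunits, and no test of these differences could be made.

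**Figure D4:**
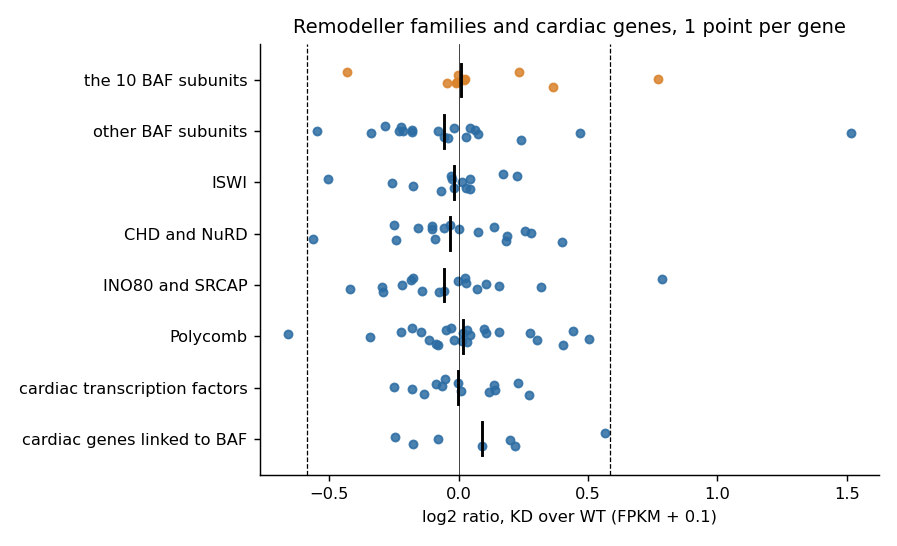
Log2 ratio of KD over WT (horizontal axis) for each compared gene of 8 lists, with 1 point per gene, a black bar at each list's median and dashed lines at 1.5-fold. All 8 medians lie between -0.06 and 0.09, and *Smarcd2*, *Bcl11a*, *Actr5* and *Pcgf5* lie outside the dashed lines.

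In a list of cardiac transcription factors, which includes *Tbx5*, *Gata4* and *Nkx2-5*, all 13 compared genes were less than 1.5-fold apart. Of all compared genes 6.48% passed that limit. *Tbx5* had 17.2 FPKM in WT against 15.7 in KD, a log2 ratio of -0.14, and *Smarcd3* was thus near the level of *Tbx5* in both groups. *Nkx2-5* had the highest level (224 and 246.8 FPKM), and the log2 ratios ran from -0.25 for *Tbx20* to 0.27 for *Gata6*. *Gata4* had 45.1 FPKM in WT against 52.9 in KD.

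Genes whose expression in the embryonic heart is known to depend on BRG1 or BAF60c were read as a further list of 8. Of these 7 were compared and 0 passed 1.5-fold, beside 6.48% of all compared genes. *Actc1* is listed at 0 in both groups, a value that cannot be a measurement for a cardiac actin gene in ventricle. *Myl7* had the highest level (13643 and 12907 FPKM). *Myh6*, the alpha myosin heavy chain gene, had 283.6 FPKM in WT against 239.2 in KD, and *Myh7*, the beta form, 469.9 and 500.4 FPKM, both at loci the table shares with other genes. *Cdkn1c*, a cell cycle inhibitor known to be kept low by BRG1 in myocardium, had 428 FPKM in WT against 633.5 in KD. At 1.48-fold it was just inside the limit. *Bmp10*, a growth factor of trabecular myocardium, had 13.2 and 11.7 FPKM, and *Adamts1*, a protease gene known to be repressed by BRG1 in endocardium, 6.72 and 7.84 FPKM. *Nppa* had 2588 FPKM in WT against 2967 in KD, a log2 ratio of 0.20.

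Markers of several cell types were read beside the BAF60 values. Of the 13 cardiomyocyte markers 0 passed 1.5-fold, beside 6.48% of all compared genes. Of these markers 9 were below and 4 above a log2 ratio of 0, and the median was -0.045. Their ratios ran from -0.25 for *Myh6* to 0.22 for *Myl2*, and they summed to 44852 FPKM in WT against 45996 in KD, with *Myl2*, a ventricular myosin light chain gene, alone at 10924 and 12702 FPKM. The part of these differences in the lower *Smarcd3* value was not tested.

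Of the 9 endocardial and endothelial markers 0 passed 1.5-fold, beside 6.48% of all compared genes, with sums of 284.1 FPKM in WT against 348.8 in KD. The highest level and log2 ratio were those of *Plvap* (128.6 and 179.2 FPKM, 0.48) and the lowest ratio that of *Nfatc1* (-0.26). The 6 erythroid markers summed to 11448 and 11525 FPKM with 0 past 1.5-fold, *Hba-x* had the highest mean level of both groups (4401 and 4318 FPKM), and *Klf1* had the lowest log2 ratio (-0.36). Of 7 epicardial markers 6 were compared, with sums over the 7 of 47.1 and 96.0 FPKM, and 5 of the 6 were at least 1.5-fold higher in KD. These were *Upk3b* (log2 ratio 1.40), *Upk1b* (1.26), *Tcf21* (1.09), *Aldh1a2* (0.92) and *Tbx18* (0.90), while *Wt1* had the lowest ratio, 0.48. *Tcf21* had the highest mean level of both groups among them, with 11.9 FPKM in WT against 25.5 in KD, and *Wt1* had 13.8 and 19.2 FPKM. All 6 megakaryocyte markers, a list added after values had been seen, were higher in KD, with sums of 47.6 and 107.4 FPKM. Of these 5 passed 1.5-fold, *Gp9* (log2 ratio 2.11), *Tubb1* (1.57), *Pf4* (1.17), *Gp1bb* (1.11, at a locus with another gene) and *Ppbp* (0.74), while *Itga2b* had the lowest ratio, 0.56. *Pf4*, which encodes a platelet chemokine, had the highest level of that list, 38.5 and 86.9 FPKM. The part of these epicardial and megakaryocyte differences in the higher *Smarcd2*, *Smarcd1* and *Bcl11a* values was not tested. Leukocyte markers, also added later, were low except for *Lyz2* (20.3 and 16.5 FPKM), and the granulocyte genes *Mpo* (0.821 and 0.130 FPKM) and *Elane* (0.105 FPKM and listed at 0) were below the minimum mean of 1 FPKM and not compared. The *Elane* locus in the table is shared by 46 genes. Of 6 neural markers 2 reached a mean of 1 FPKM, *Tubb3* (12.2 and 26.9 FPKM) and *Elavl4* (1.38 and 0.773 FPKM), which differed in opposite directions, and *Sox1* and *Neurod1* were listed at 0 in both groups. The hepatic and yolk sac markers reached at most 0.790 FPKM in either group, for *Ttr* in KD, and of the skeletal muscle markers *Pax3* alone was above 0.

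The counting of reads at some subunits may depend on neighbouring genes, since Smart-Seq2 reads carry no strand. In GENCODE M21, 913 of the 2730 exonic bases of *Smarcd3* within its locus in the table are also exonic in *Chpf2* on the opposite strand. In the table the *Chpf2* locus ends before that of *Smarcd3* begins, and *Chpf2* had 4.43 FPKM in WT against 5.01 in KD. *Mir671*, at the same locus in the table as *Chpf2*, was listed at 0 in WT and at 23.2 FPKM in KD. The part of reads from these genes in the *Smarcd3* values was not tested. For *Smarcd2* no exonic overlap with another gene was found, and for *Smarcd1* 224 of 3868 exonic bases overlap the antisense gene Gm34939 and 176 the opposite-strand gene Gm17349.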

How the data were processed

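Ventricle RNA of 3 WT and 3 KD embryos was sequenced, and groups were taken from the sample titles. The authors processed the reads with TopHat, Bowtie2 and Cuffdiff on mm10, per the labels; their versions are not given in the sources used here. The authors deposited 1 Cuffdiff table with an FPKM value for each group (KD appears as KO). Its fold change, test statistic, p-value, q-value and significance columns hold the authors' own comparison and were not used. There were 0 columns of single embryos. FPKM gives no counts, so depth and precision are unknown. Actc1, listed at 0, was kept out of the comparison by the filter.

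Genes with a mean of at least 1 FPKM over both groups were compared by log2((KD + 0.1)/(WT + 0.1)), and at least 1.5-fold was called. With 1 value per group no test was made. Start positions in the table were moved by 1. GENCODE M21 (GRCm38) and RefSeq promoter windows (GRCm38.p6) gave annotation and sequence, and all 10 genes were found in both. The calculation was tested on simulated data.

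The members and lists were chosen with earlier results of these data known. The text names all listed BAF subunits, from each further list the highest level, the highest and lowest ratio and any gene past 1.5-fold, and Tbx5; other genes were named after their values were seen, and 1 erythroid marker is not reported here. Alternatives covered the pseudocount, scaling, filter and threshold. Python 3.11.15, NumPy 2.4.6, pandas 2.3.3 and Matplotlib 3.10.9 were used.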

Additional observations from a re-analysis of the deposited data

How the results depend on the processing

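With no values of single embryos and the authors' test columns unused, the values used here cannot say how much of a difference lies within the spread between embryos. No paired analysis was possible because single embryos have no columns, and for the same reason no replicate could be left out. Of the 10 log2 ratios, 8 kept their sign under 4 alternatives of pseudocount and scaling, and Smarcc2 and Arid1a, both near 0, went to -0.0093 and -0.0061 when each group was rescaled to 1000000. The log2 ratio of Smarcd2 ranged from 0.66 to 0.78, that of Smarcd3 from -0.46 to -0.41 and that of Smarcd1 from 0.33 to 0.37.

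The count of subunits past 1.5-fold stayed at 1 of the 10 under each pseudocount, scaling and filter, and became 3 at a log2 ratio of 0.32 in size and 0 at 2-fold. Among the other subunits the count of 1 became 2 with no pseudocount, when Dpf1 passed, 0 at a mean of at least 5 FPKM and 4 at a log2 ratio of 0.32. The median log2 ratio of the 10 subunits, 0.0086, became 0.0045 with the median of all genes subtracted, -0.022 with each group rescaled to 1000000, and -0.0038 with genes of a shared locus left out, an alternative chosen after seeing the data. That of the other subunits, -0.06, became -0.049 with a pseudocount of 1 FPKM, -0.086 rescaled to 1000000, -0.049 with no filter, -0.068 at a mean of at least 5 FPKM and -0.080 without shared loci. The share of all genes past 1.5-fold, 6.48%, became 16.2% with no filter and 2.97% at a mean of at least 5 FPKM, and 20.1% and 2.01% passed a log2 ratio of 0.32 and 2-fold.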
